A study of Bos taurus with 9 samples.

Results

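Among 24616 bovine gene identifiers, 8 had a level in IVF embryos near that in oocytes and a lower level in SCNT embryos. In the deposited values the IVF mean was 0.752 to 0.903 times the oocyte mean. SCNT embryos held 43.3% to 51.4% of the mean IVF and MII level. After median-ratio scaling or quantile normalization, 0 of these 8 genes met the rule given below. They were chosen by their FPKM values (sequenced fragments per kilobase, relative to the library's fragments) in all 9 libraries. A gene was taken when every IVF and MII value was at least 5 FPKM and the IVF mean lay between 0.75 and 1.33 times the MII mean. In addition the highest SCNT value had to be at most 0.67 times the lowest of the 6 IVF and MII values, every SCNT value at least 1 FPKM, and the mean over the 9 libraries under 1000 FPKM. The choice used all 3 contrasts between the groups, so the differences among them are given as a description. The 8 genes were reduced in SCNT embryos, not lost: their lowest SCNT value was 2.80 FPKM.

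The libraries came from Holstein cattle. MII oocytes are mature unfertilised eggs held at the second meiotic metaphase, and each of their 3 libraries was made from a pool of 3 oocytes. IVF embryos were made by fertilisation in vitro and SCNT embryos by somatic cell nuclear transfer, in which a somatic nucleus replaces that of the egg. Both were taken at the 2-cell stage, with 3 libraries each from pools of 6 embryos. The labels used here give no allele, donor cell, sperm source or activation treatment, and leave unsaid if pools were drawn from different animals or cultures. Any p-value therefore measures only the spread between these libraries, which may be technical.

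The growing oocyte makes and stores messenger RNA that the embryo uses before its own genome takes over transcription. In cattle the main wave of embryonic transcription comes after the 2-cell stage, so at that stage most RNA is of maternal origin. Stored messages can be translated, stabilised or degraded after fertilisation or artificial activation, and their removal is part of the passage from maternal to embryonic control. A nuclear transfer embryo inherits the stored RNA of the egg but has lost the egg's chromosomes, with some cytoplasm, and carries a somatic nucleus. In a pool of whole embryos, fewer cells holding a transcript and less of it per cell cannot be told apart.

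The files do not pair the identifiers with gene names. The RefSeq gene table of assembly ARS-UCD2.0 used here gave an Ensembl identifier, the kind deposited, in 0 of its 37063 rows. That 0 of 24616 identifiers matched it was therefore fixed and says nothing about the genes. No role, position or sequence is given for the 8 genes, and the label of each group could not be set against marker genes. The genes are numbered 1 to 8 in descending order of their mean level in oocytes. Of the identifiers, 2 are printed: that of gene 1, the highest in oocytes, and that of gene 5, whose SCNT mean was the smallest share of the IVF and MII level.

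The FPKM totals of the libraries ran from 1153912 to 1386979. Steps between low values placed every library between 80.7% and 100% of the deepest, with MII replicate 1 the shallowest. That estimate is rough, since at most 19.8% of the genes used for a library lay within 0.03 of the common log2 ratio, and the absolute depth is unknown. No 2 libraries were duplicates, the highest correlation of log2(FPKM + 1) across the 9458 tested genes being 0.989.

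ENSBTAG00000027655 (gene 1) had 36.3, 68.0 and 36.1 FPKM in MII replicates 1, 2 and 3, against 39.9, 35.7 and 41.7 FPKM in IVF and 19.9, 23.8 and 22.5 FPKM in SCNT replicates 1, 2 and 3. The IVF libraries and MII replicates 1 and 3 lay together, MII replicate 2 lay well above them, and all SCNT libraries lay below. Its means were 46.8 ± 18.4 FPKM in oocytes, 39.1 ± 3.098 FPKM in IVF embryos and 22.1 ± 2.00 FPKM in SCNT embryos (SD, n = 3 each), so that SCNT embryos held 56.4% of the IVF mean and 47.1% of the oocyte mean. Gene 2 had 27.1, 41.7 and 20.9 FPKM in MII replicates 1, 2 and 3, against 29.0, 21.8 and 30.3 FPKM in IVF and 13.9, 13.1 and 12.4 FPKM in SCNT replicates 1, 2 and 3. It had the widest relative spread among the IVF libraries, with a coefficient of variation (SD over mean) of 17.0%, yet the lowest IVF value of 21.8 FPKM was still well above the highest SCNT value of 13.9 FPKM.

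Gene 3 had 17.5, 32.2 and 19.8 FPKM in MII replicates 1, 2 and 3, against 18.7, 18.2 and 19.0 FPKM in IVF and 9.45, 11.0 and 11.7 FPKM in SCNT replicates 1, 2 and 3. Its IVF libraries were nearly equal, with a coefficient of variation of 2.32%. Gene 4 had 14.2, 21.4 and 14.7 FPKM in MII replicates 1, 2 and 3, against 13.7, 15.3 and 12.6 FPKM in IVF and 7.84, 7.74 and 7.52 FPKM in SCNT replicates 1, 2 and 3. The SCNT libraries of gene 4 had a coefficient of variation of 2.09%, a narrow spread around a mean that was 55.6% of the IVF mean.

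ENSBTAG00000006548 (gene 5) had 12.9, 25.2 and 11.7 FPKM in MII replicates 1, 2 and 3, against 12.6, 12.3 and 15.7 FPKM in IVF and 5.23, 7.35 and 6.96 FPKM in SCNT replicates 1, 2 and 3. Its means were 16.6 ± 7.48 FPKM in oocytes, 13.5 ± 1.88 FPKM in IVF embryos and 6.51 ± 1.13 FPKM in SCNT embryos (SD, n = 3 each). The SCNT mean was 43.3% of the mean of the 6 IVF and MII libraries, the smallest share among the 8 genes, while its SCNT libraries had the widest relative spread of the 8, with a coefficient of variation of 17.3%. Gene 6 had 10.8, 20.3 and 15.0 FPKM in MII replicates 1, 2 and 3, against 12.1, 13.6 and 11.0 FPKM in IVF and 7.23, 7.07 and 6.94 FPKM in SCNT replicates 1, 2 and 3. It was the least reduced against IVF embryos, with an SCNT mean at 58.0% of the IVF mean.

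The last 2 genes lay close to the minimum of 5 FPKM. Gene 7 had 6.61, 12.6 and 6.12 FPKM in MII replicates 1, 2 and 3, against 6.47, 5.76 and 7.44 FPKM in IVF and 3.65, 3.12 and 3.35 FPKM in SCNT replicates 1, 2 and 3. Gene 8 had 6.19, 11.2 and 5.71 FPKM in MII replicates 1, 2 and 3, against 5.86, 5.85 and 5.64 FPKM in IVF and 2.80, 2.90 and 3.68 FPKM in SCNT replicates 1, 2 and 3. In gene 8 the IVF mean was 0.752 times the oocyte mean, at the very edge of the range that the choice allowed.

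**Figure D1:**
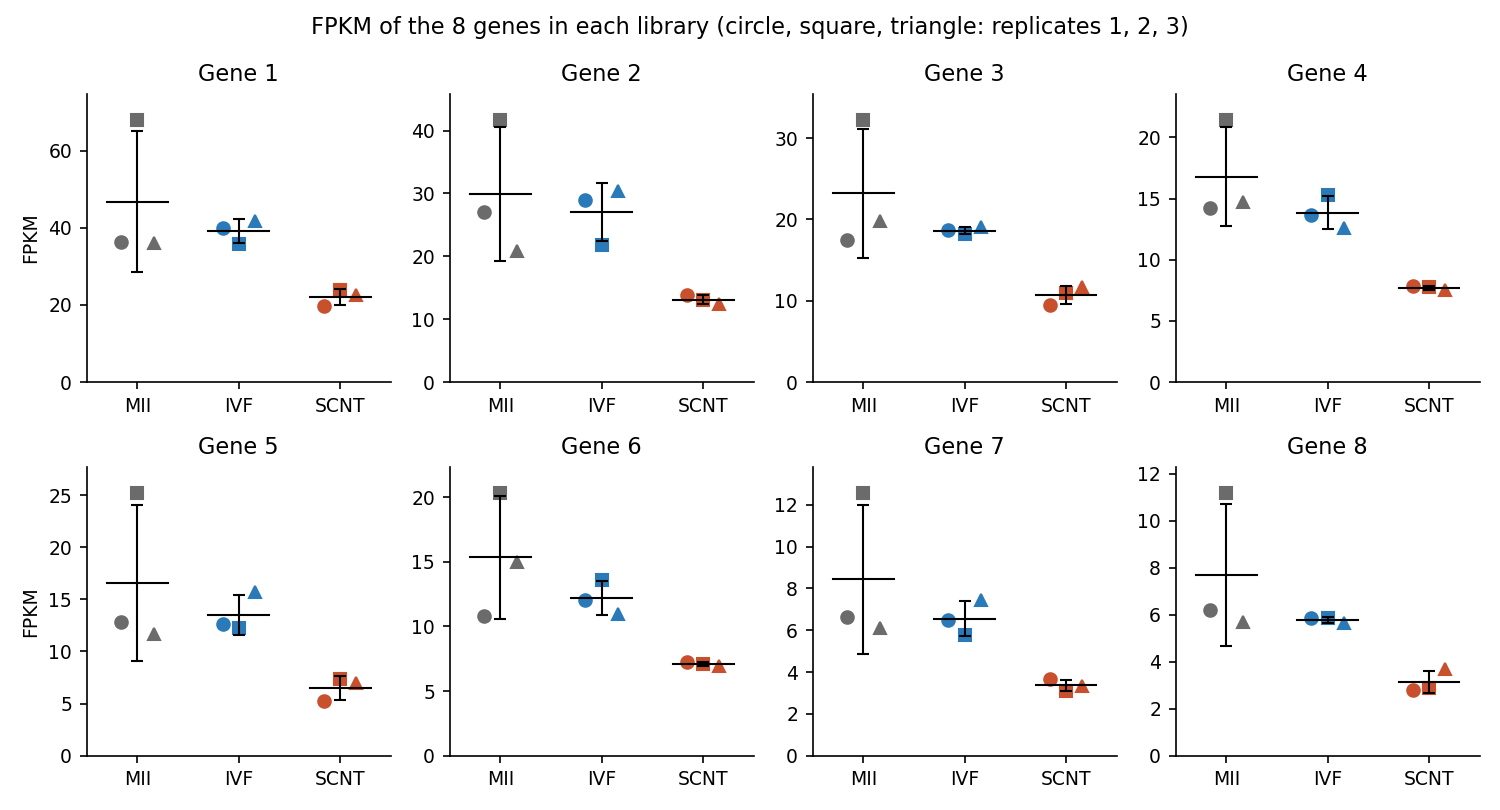
FPKM (y axis, from 0) of each of the 8 genes in the MII, IVF and SCNT libraries; points are libraries (circle, square and triangle for replicates 1, 2 and 3), and lines with bars are the mean and SD of 3 libraries. In each gene the SCNT points lie below all others and the square of MII replicate 2 lies above all others.

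The size of the reduction varied little among the 8 genes, which follows in part from the choice. The rule took only ratios of highest SCNT to lowest other value at or under 0.67. Of the genes meeting its other criteria, 0 had such a ratio at or under 0.6. The SCNT mean was between 48.2% and 58.0% of the IVF mean (median 54.8%) and between 39.3% and 47.1% of the oocyte mean (median 44.9%). On a scale of log2(FPKM + 1), where differences of low genes come out too small, SCNT embryos differed from IVF embryos by -0.97 to -0.70 (median -0.78), where the median of all 9458 genes tested (1 FPKM or more in 3 or more libraries) was -0.25. Against oocytes the SCNT difference ran from -1.16 to -0.98 (median -1.02), and the median of all genes was 0.16. Between IVF embryos and oocytes it ran from -0.30 to -0.10 (median -0.25), where the median of all genes was 0.40. With the deposited values, the 8 genes thus lay a little below the oocyte level in IVF embryos, where the median gene lay above it.

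All 8 genes were of moderate abundance, with means over the 9 libraries from 5.53 to 36.0 FPKM, so the upper limit of 1000 FPKM removed no gene. Neither did the minimum of 1 FPKM in SCNT embryos nor that of 5 FPKM in the other libraries: without any 1 of these 3 criteria the rule still gave 8 genes. Without the criterion on the ratio of IVF to MII means it gave 18 genes. Lowering the minimum of 5 FPKM to 2 gave the same 8 genes, and raising it to 10 FPKM left 6 of them.

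The criterion on SCNT embryos decided which genes were taken. The others were met by 2220 genes, called kept genes from here on, and 8 of these (0.36%) had a highest SCNT value at most 0.67 times the lowest IVF or MII value. This ratio ran from 0.623 (gene 4) to 0.6696 (gene 3) in the 8 genes and had a median of 1.09 over the kept genes. The 3 genes just inside the limit were genes 1, 6 and 3, at 0.6668, 0.6672 and 0.6696. The 3 nearest outside it were at 0.6712, 0.675 and 0.677, with SCNT means of 37.1, 3.62 and 4.18 FPKM and IVF means of 62.0, 6.91 and 7.09 FPKM. No gap separated the 8 genes from the rest: 21 kept genes lay at or under 0.7, 67 at or under 0.75 and 162 at or under 0.8, and 0 lay at or under 0.6.

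**Figure D2:**
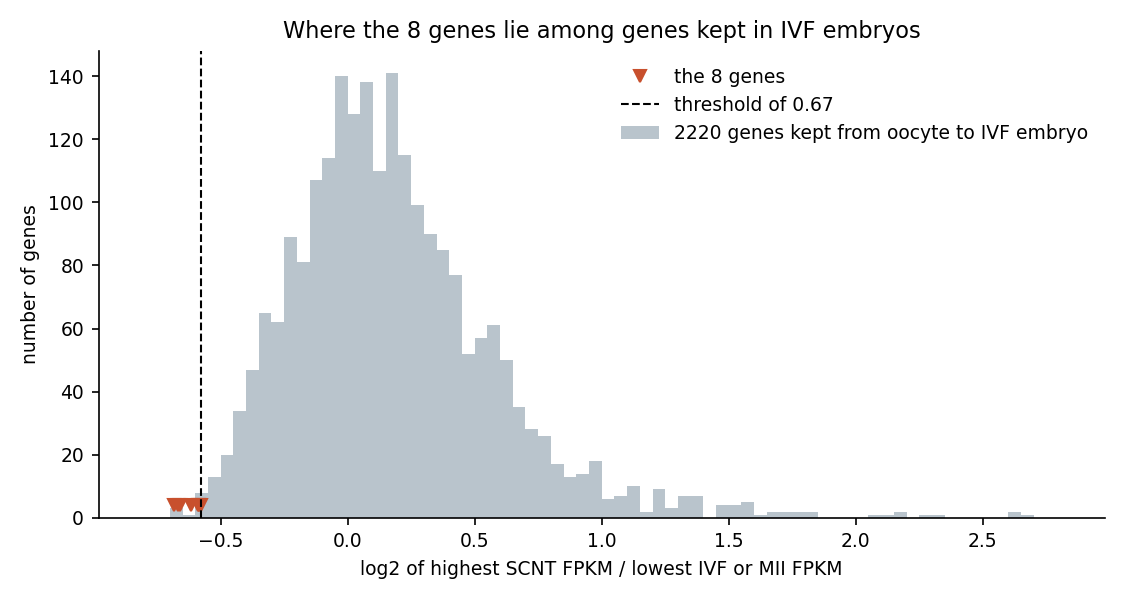
Number of the 2220 kept genes (y axis) by the log2 ratio of the highest SCNT value to the lowest IVF or MII value (x axis); triangles are the 8 genes and the dashed line is the limit of 0.67. The 8 genes form the left end of one continuous distribution.

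The criterion compares extremes, so 1 library near the other groups was enough to keep a gene out. By means, SCNT embryos held 43.3% to 51.4% of the mean of the 6 IVF and MII libraries in the 8 genes, and the median over the kept genes was 80.1%. Gene 5 had the second lowest share of the 2220 kept genes, followed by gene 7, gene 2 and gene 8. Another 19 kept genes had a share no higher than that of gene 1, the highest of the 8, and were not taken because at least 1 library lay closer to the other groups. When group means took the place of the extremes at the same limit of 0.67, 258 genes passed, the 8 among them. In the other direction, with every SCNT value at least 1/0.67 times the highest IVF or MII value and the criteria on the other libraries alike, 0 genes passed. That balance of 8 lower to 0 higher genes held for the values as deposited: it was 15 to 0 rescaled to a common sum, 0 to 1 after median-ratio scaling and 1 to 2 after quantile normalization. The lower and upper limits need not be equally strict. In the deposited values MII replicate 2 was the highest of the 9 libraries in 48.6% of the kept genes and set the upper limit there.

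MII replicate 2 stood apart in these genes. It was the highest of the 9 libraries in 8 of 8 genes, at 1.48 to 2.05 times the mean of MII replicates 1 and 3 (median 1.81). Over all 9458 tested genes this ratio had a median of 1.15 and MII replicate 2 was the highest library in 22.4%, and over the kept genes the median was 1.26 and the share 48.6%. Without it, the IVF mean was 0.946 to 1.12 times the oocyte mean, above it in 4 genes and below it in 4, where with all libraries it was below in 8 of 8 at 0.752 to 0.903 times. The SCNT share of the oocyte mean moved from between 39.3% and 47.1% to between 52.5% and 60.9%, close to the SCNT share of the IVF mean. All 8 genes also met the rule when this library was left out, where only the ratio of IVF to MII means could have excluded them. The lowest of the 6 IVF and MII values, which sets the limit for SCNT embryos, came from IVF replicate 2 in 2 genes, IVF replicate 3 in 2, MII replicate 1 in 2 and MII replicate 3 in 2, and never from MII replicate 2.

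The 8 genes deviated together mostly through the same library. The spread of the oocyte libraries was wide, with a coefficient of variation of 24.0% to 45.1%, against 2.21% to 17.0% in IVF embryos and 2.02% to 17.3% in SCNT embryos. After each group's mean was subtracted, the 28 pairs of genes had a median Pearson correlation of 0.83 over the 9 libraries (0.384 to 0.970). Without MII replicate 2 the median was -0.107 over 8 libraries (-0.857 to 0.884). These correlations are descriptions over libraries that all genes share. Within SCNT embryos no library was low in every gene: replicate 1 was the lowest of the 3 in 4 genes and the highest in 4.

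Limma, fitted on all 9458 genes and 9 libraries, called 0 of the 8 as lower in SCNT embryos than in IVF embryos at an adjusted p under 0.05, where 0.0634% of all genes were called lower. All 8 had an unadjusted p under 0.05 in limma, as had 2856 of the 9458 genes. With the limit on the adjusted p raised to 0.1, which was added after the data had been seen, limma called 8 of 8 lower, where 13.4% of all genes were. At the threshold of 0.05, 8 of 8 were called lower when only the SCNT and IVF libraries were fitted, where 11.9% of all genes were called, and 8 of 8 without MII replicate 2, where 15.2% were. Against oocytes, limma called 8 of 8 lower in SCNT embryos at 0.05, where 18.1% of all genes were called lower. Between IVF embryos and oocytes it called 0 of 8 in either direction (0 at an unadjusted p under 0.05), where 54% of all genes were called. The choice of the genes used each of these contrasts, and nothing about them is read from the calls.

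The lower level in SCNT embryos was also seen in the rank of a gene within its library, a measure that scaling between libraries does not change but that rests on the values that chose the genes. Each gene was ranked among the 9458 tested genes of its library. The genes stood between the 44.9th and 81.9th percentile in oocytes (median 63.5), between the 33.7th and 73.4th in IVF embryos (median 53.6) and between the 23.4th and 66.5th in SCNT embryos (median 44.6). In 8 of 8 genes every SCNT library ranked below every IVF and MII library, where this held for 9.59% of all genes. The mean rank in SCNT embryos was 6.44 (gene 6) to 10.4 (gene 5) percentile points below that in IVF embryos, and 11.7 (gene 1) to 22.1 (gene 8) points below that in oocytes.

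The genes ranked lower in IVF embryos than in oocytes, but a rank is not a level. On the log2 scale the median tested gene lay at 3.63 to 3.75 in IVF, 3.27 to 3.48 in SCNT and 2.96 to 3.26 in MII libraries. A gene of unchanged FPKM can therefore rank lower in IVF or SCNT embryos than in oocytes. Every IVF library ranked below every MII library in 7 of 8 genes, where this held for 29.6% of all genes. Gene 2 was the exception, with IVF ranks from the 62.9th to the 67.7th percentile and oocyte ranks from the 67.4th to the 75.7th. Gene 8 moved from a mean of the 49.3rd percentile in oocytes to the 35.6th in IVF embryos and the 27.2nd in SCNT embryos. On the rank scale the order was oocyte, IVF embryo, SCNT embryo in descending order of the mean in all 8 genes.

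**Figure D3:**
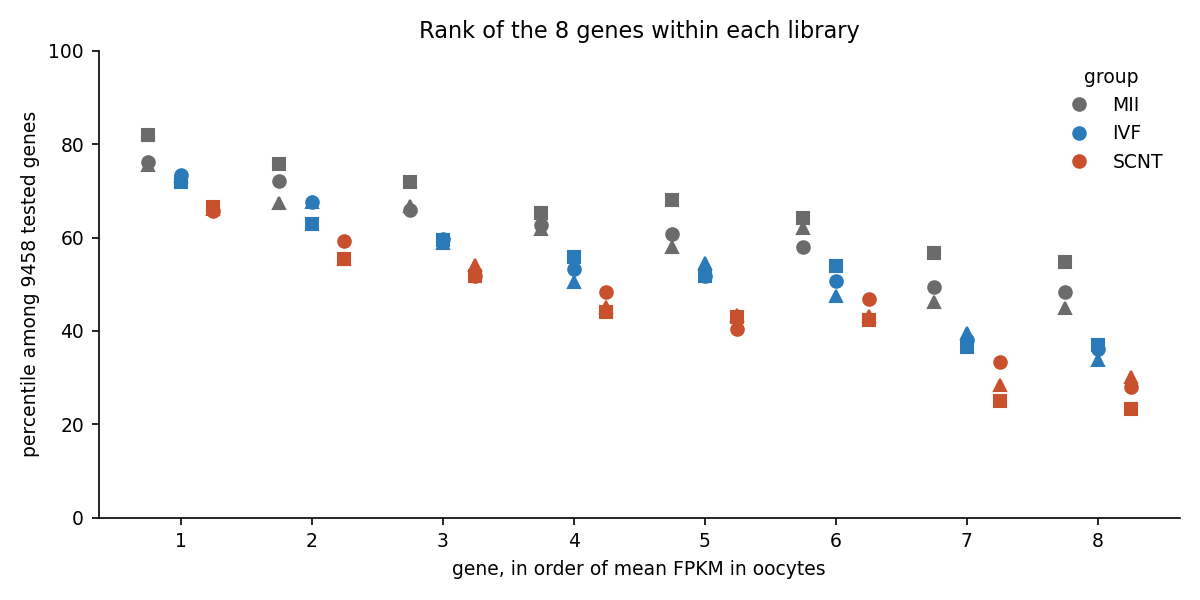
Percentile of each of the 8 genes among the 9458 tested genes of a library (y axis, 0 to 100), by gene in order of oocyte level (x axis); points are libraries, coloured by group, with circle, square and triangle for replicates 1, 2 and 3. SCNT points lie below the IVF points in every gene, and IVF points lie below the MII points in every gene but gene 2, where they meet.

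Whether IVF embryos kept the oocyte level of these genes depended on the scaling. SCNT embryos were lower under each scaling run. For a common sum and for median-ratio scaling the choice of the genes fixed that outcome. It had put every SCNT value at most 0.67 times the lowest IVF or MII value. The scaling factors of the libraries differed too little to close that gap. After quantile normalization the highest SCNT value was 0.657 to 0.975 times the lowest IVF or MII value. That scaling also starts from the values that chose the genes, so its outcome is not independent of the choice. FPKM as deposited gave 0 of 8 genes with no overlap between IVF and MII libraries, where 60.1% of all genes had none, and 8 of 8 with SCNT below every other library, where 13.2% of all genes were. Median-ratio scaling divides each library by the median ratio of its genes to their mean level, over genes averaging 10 FPKM or more. With it the IVF mean was 64.6% to 77.1% of the oocyte mean, and IVF libraries were below every MII library in 5 of 8 genes, where 20.3% of all genes were. SCNT embryos then held 57.3% to 68.8% of the IVF mean, and SCNT libraries were below every IVF and MII library in 8 of 8 genes, where 7.6% of all genes were. Limma then called 4 of 8 lower in IVF embryos than in oocytes, where 16.8% of all genes were called lower. After quantile normalization, which gives all libraries the same distribution, it called 7 of 8 lower, where 23% were. With the FPKM rescaled to a common sum, the IVF mean was 77.5% to 93.4% of the oocyte mean and the SCNT mean 45.0% to 54.2% of the IVF mean.

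**Figure D4:**
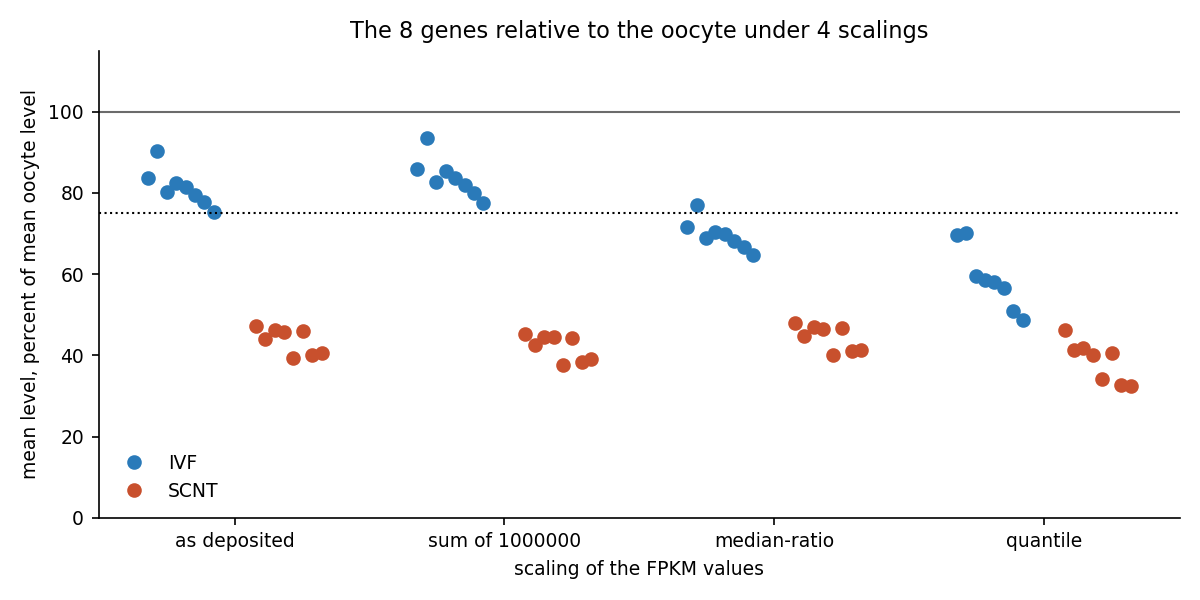
Mean level in IVF and SCNT embryos as a percentage of the mean oocyte level (y axis, from 0) under 4 scalings of the FPKM values (x axis); each point is 1 of the 8 genes, in order from gene 1 to gene 8 within a cluster, the solid line is the oocyte level and the dotted line is the lower limit of 0.75 times that level. IVF points lie above the dotted line for the values as deposited and for those rescaled to a sum of 1000000, and below it for 7 genes with median-ratio scaling and all 8 with quantile normalization.

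The set itself changed with the scaling. Rescaled to a common sum, 15 genes met the same criteria, 3 of the 8 among them. With median-ratio scaling 0 genes met them, and with quantile normalization of the FPKM values 1 gene did, which was none of the 8. With median-ratio scaling the 8 genes missed on both sides: the highest SCNT value was 0.678 to 0.843 times the lowest of the others, and in 7 of 8 the ratio of IVF to MII means was under 0.75.

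The rule was applied again to 8 libraries at a time, and the library left out was then read for the genes so chosen. Its value is set against the mean of IVF and MII libraries that did choose them, so the percentages are not free of the choice. Without SCNT replicate 1, 14 genes were chosen, and in that library they stood at a median of 51.8% of the mean IVF and MII level (34.8% to 88.0%), where the kept genes had a median of 77.1%. Without SCNT replicate 2, 31 genes were chosen, and their median in it was 58.8% (41.6% to 92.7%), with 80.3% for the kept genes. Without SCNT replicate 3, 22 genes were chosen, and their median in it was 56.9% (43.7% to 74.5%), with 81.0% for the kept genes. In each case the median of the genes chosen without the library lay under that of the kept genes. The number meeting the limit in the library left out was 8 each time, as the rule itself fixes.

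The IVF libraries were left out in the same way. Without IVF replicate 1, 17 genes were chosen, and in that library they stood at a median of 79.5% of the mean of the other 5 IVF and MII libraries, where the kept genes stood at 98.6%. Without IVF replicate 2, 15 genes were chosen, with a median of 73.9% in it, against 97.4% for the kept genes. Without IVF replicate 3, 9 genes were chosen, with a median of 80.7% in it, against 106% for the kept genes. Of these genes, 7 of 17, 6 of 15 and 6 of 9 met the SCNT limit of 0.67 against the library left out. They were just those among the 8 genes, whose choice with all 9 libraries had already read that library. Nothing is therefore read from these counts.

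Oocyte libraries were unequal in this respect. Without MII replicate 1, 4 genes were chosen, 3 of them among the 8, and without MII replicate 3, 11 were chosen, 4 of them among the 8. Without MII replicate 2, 10 genes were chosen, all 8 among them, and in that library they stood at 152% to 207% of the mean of the other 5 libraries, where the kept genes had a median of 120%. Genes 1 to 8 were all chosen when any of the SCNT libraries or MII replicate 2 was left out, and not all of them when any other library was. Leaving out a library can only loosen the limits on SCNT values and on the lowest values. A member could therefore drop out only through the ratio of IVF to MII means. SCNT libraries do not enter that ratio, so without any of them the outcome was fixed.

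**Figure D5:**
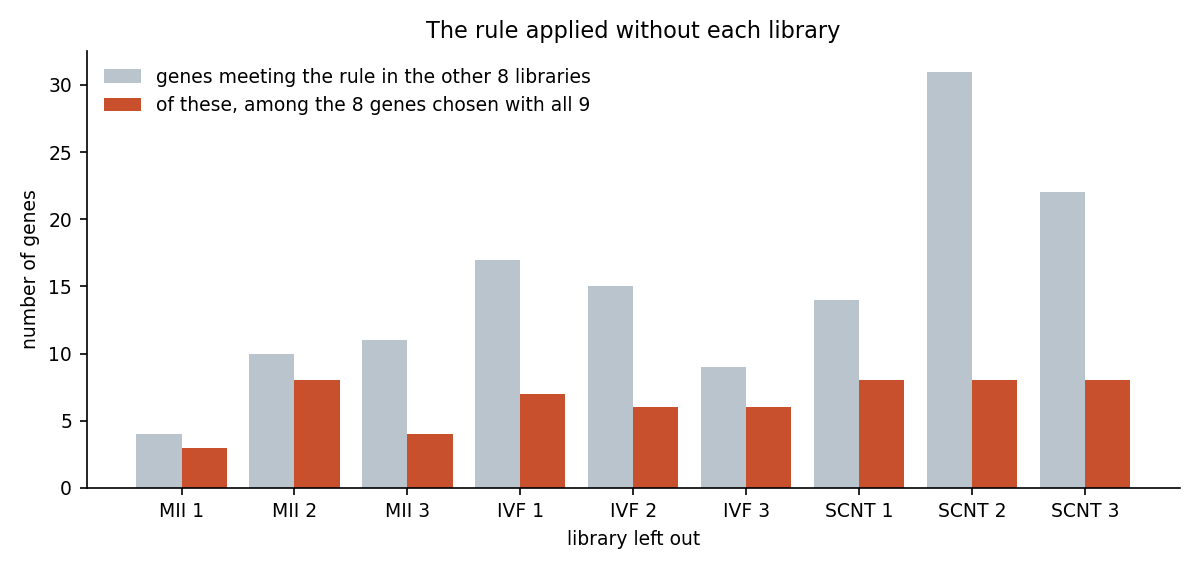
Number of genes (y axis, from 0) meeting the rule in the other 8 libraries when the library on the x axis is left out; grey bars are all genes so chosen and orange bars those among the 8 chosen with all libraries. The grey bars run from 4 without MII replicate 1 to 31 without SCNT replicate 2.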

How the data were processed

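RNA from 3 MII oocyte, 3 IVF and 3 SCNT 2-cell libraries was measured. The authors deposited 1 table of FPKM values, a unit taken from the table's own name. The submitters' processing notes name HISAT 0.1.6, Bowtie2 2.2.5, StringTie 1.0.4, RSEM 1.2.12, bcl2fastq 2.16 and build UMD3.1; the tool behind the FPKM is not stated. FPKM is relative to each library's total, so it shows no change in RNA per embryo. Per the labels' protocols cDNA was amplified, which adds noise at low levels, and no strand-marking step is described, so overlapping antisense genes and near-identical copies are uncertain.

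The rule was applied to the deposited values. Genes reaching 1 FPKM in 3 or more libraries (9458, all 8 members included) were fitted as log2(FPKM + 1) with limma 3.58.1 in R 4.3.3, with a term per group, a variance trend and Benjamini-Hochberg adjustment over all genes at 0.05. The fit was tested on simulated data. Python 3.11.15, pandas 2.3.3 and numpy 2.4.6 did the rest. The members, lists and rule for printed identifiers (the member with the lowest SCNT share and the member highest in oocytes) were chosen with earlier results of these data known. Without gene names, the gene lists and marker lists were not analysed here. Alternatives were other pseudocounts, filters, scalings, thresholds, a replicate block and leaving out each library.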

Additional observations from a re-analysis of the deposited data

How the results depend on the processing

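The number of genes meeting the rule, 8, was 15 with FPKM rescaled to a common sum, 0 after median-ratio scaling, 1 after quantile normalization, 0 with an SCNT limit of 0.5, 162 with a limit of 0.8 and 1 with a narrower window for the ratio of IVF to MII means. It ran from 4 to 31 with 1 library left out. The count of members that limma called lower in SCNT than in IVF embryos, 0, was 8 when only these 2 groups were fitted and 8 at an adjusted p under 0.1, and ran from 0 to 8 with 1 library left out, the 8 being without MII replicate 2. Called against oocytes, the SCNT count was 8 in each of 19 alternatives. Among all genes 18.1% were called lower in the main fit, and the number so called ran from 1392 to 2823 over the alternatives. The choice of the genes used this contrast, so nothing is read from the constant count. For IVF embryos against oocytes the count, 0, was 4 after median-ratio scaling and 7 after quantile normalization, and ran from 0 to 1 with 1 library left out, the 1 being without MII replicate 1. The median member's SCNT minus IVF difference, -0.82 as the difference of library medians, was -0.89 for log2(FPKM + 0.1), -0.60 for log2(FPKM + 5), -0.88 for values rescaled to a common sum, -0.59 after median-ratio scaling and -0.54 after quantile normalization, and ran from -0.85 to -0.79 with 1 library left out. Less the median over all genes of the per-gene difference, it was -0.57 as deposited, -0.55 after median-ratio scaling and -0.51 after quantile normalization. The 2 terms are unlike statistics, since that of the members is a difference of library medians. This median difference stayed below 0 in each alternative run, as did the SCNT minus IVF difference of ENSBTAG00000027655 and of ENSBTAG00000006548. The genes were chosen for low SCNT values, so nothing is read from these signs. The counts of members and of calls changed as given above.

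Same-numbered libraries of different groups had correlations of their deviations from -0.167 to -0.00078, and differently numbered libraries from -0.0917 to 0.111. Deviations from a group mean cancel within the group, so these correlations are tied to each other. They cannot tell whether libraries of the same number shared animals or cultures. With the replicate block, limma called 0 of 8 members in SCNT minus IVF, 8 in SCNT minus MII and 0 in IVF minus MII. Over all genes the block gave 2 lower and 7 higher calls for SCNT minus IVF, against 6 and 11 without it. Over all alternatives at an adjusted p under 0.05, limma's lower calls among all genes ran from 2 to 1437 for SCNT minus IVF and from 690 to 2171 for IVF minus MII, where the unblocked fit with all libraries gave 6 and 896. The FPKM keep no read totals, so no counting interval is given, and how many reads lie behind the lowest members is unknown.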
